A study of Mus musculus with 22 samples.

Results

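The genes described here are the immediate early transcription factors of the AP-1 family, Fosb, Fosl1, Fosl2, Jun, Junb and Jund, together with Egr1, Atf3 and Myc. They were chosen by name, and their Ensembl identifiers were matched to the 10516 genes of the deposited tables. Of the 10 genes on the list 9 were analysed, and Fos was not analysed here. All lysates came from NIH3T3 cells, a line of fibroblasts from mouse embryos and grown in medium with serum, and were treated with cycloheximide, which arrests elongating ribosomes, before lysis. There were 6 knockdown lysates, 3 with Denr shRNA1 and 3 with Denr shRNA2, and 5 control lysates, 3 with scramble shRNA and 2 with Gfp shRNA. The shRNAs were delivered by lentivirus with puromycin selection, in control cells too, and each lysate came from a separate dish of confluent cells. Whether the dishes came from separate transductions is not given in the sources used here, so that the spread between lysates may be partly technical. Each lysate gave 1 library of ribosome-protected fragments, or footprints (RPF-seq), and 1 RNA-seq library.

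Immediate early genes are transcribed within minutes of a growth factor or stress signal without the need for new protein synthesis, and many of their mRNAs and proteins are short-lived. Fos and Jun proteins pair through leucine zippers to form AP-1, which binds the TRE and CRE elements of promoters. Egr1 is a zinc finger factor, Atf3 a stress-induced partner of AP-1 proteins, and Myc pairs with MAX to drive growth and ribosome biogenesis. DENR forms a complex with MCTS1 and is known for a role in translation reinitiation, in which a ribosome that has translated an upstream open reading frame (uORF) goes on to start at the main coding sequence (CDS).

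The RPF-seq libraries held 10927303 to 21649878 reads on the CDS and 5′ UTR of the 10516 genes, and the RNA-seq libraries 8514080 to 20109699. Denr, the targeted gene, had 15.5 to 44.0 RPKM in RNA-seq in the knockdown lysates and 164.7 to 190.1 RPKM in controls, and 9.25 to 43.2 RPKM against 152.1 to 179.4 RPKM in RPF-seq. All 9 fibroblast markers were present, with a summed RNA level of 7681 to 9587 RPKM after knockdown and 7366 to 8954 RPKM in controls. The 2 epithelial markers analysed, Cdh1 and Krt14, summed to at most 19.9 RPKM, and Cdh5, the 1 leukocyte or endothelial marker analysed, reached at most 1.10 RPKM. Between replicates of an shRNA, R2 across genes was 0.981 to 0.992 in RPF-seq and 0.956 to 0.994 in RNA-seq.

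AUG uORFs were read from GENCODE vM21 transcripts (GRCm38) as AUG codons upstream of the CDS that were followed in frame by a stop codon, with 9 nt as the shortest length. Such uORFs were present in 4 of the 9 genes, with 10 in Egr1, 3 in Fosl1, 1 in Fosl2 and 1 in Atf3, and in none of Fosb, Jun, Junb, Jund and Myc. With the transcript of the longest CDS per gene, as used here, 49.8% of all genes with an annotated 5′ UTR (5085 of 10205) had at least 1. With that of the longest 5′ UTR the share was 61.7% (6430 of 10421), and the numbers of uORFs in the 9 genes were the same. None of the 15 uORFs overlapped the CDS. The uORF of Fosl2 opened at the first base of its annotated transcript. The start sites of Fosl1 are shown because this gene had the highest footprint density of the group, that of Jun because this gene had the highest 5′ UTR footprint density relative to its CDS, and that of Myc because its longest annotated CDS began at a CUG. The start of the shorter annotated CDS of Myc is not shown. Capitals mark the start codon.
Fosl1 uORF at chr19:5447617-5447634 (+): aattgcaccATGtatggg
Fosl1 uORF at chr19:5447621-5447638 (+): gcaccatgtATGggcagc
Fosl1 uORF at chr19:5447659-5447676 (+): ccgccgcggATGctaggg
Fosl1 CDS at chr19:5447942-5447959 (+): gcccagggcATGtaccga
Jun CDS at chr4:95051263-95051280 (−): gaccgttctATGactgca
Myc CDS at chr15:61985913-61985930 (+): gtttgaaggCTGgatttc
The uORFs of Fosl1 were 81, 45 and 39 nt long, and began 325, 321 and 283 nt before the CDS. The annotated CDS of Myc with the greatest length began at a CUG and was 1362 nt long, while that of a second transcript (Myc-205) was 1317 nt long. The lengths behind the deposited RPKM were inferred, as the shortest that made the values of all 22 libraries whole reads. For the CDS of Myc the inferred length was 1362 nt, which equals the CDS that begins at the CUG. The regions counted as 5′ UTR by the authors had the annotated length in Fosl2 (903 nt), Egr1 (1666 nt) and Atf3 (252 nt), but not in the other genes. For Jun the lengths were 1236 nt as inferred and 951 nt in vM21, and for Fosl1 they were 248 and 404 nt, so that part of the annotated 5′ UTR of Fosl1 lay outside the counted region. The widest gap was that of Jund, with 1319 nt as inferred and 109 nt in the annotation.

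Promoters of 250 bases before to 50 after the transcription start were available for 6 of the 9 genes (RefSeq, GRCm38.p6), all but Fosl1, Egr1 and Myc. They were searched on both strands for TGANTCA (TRE), TGACGTCA (CRE) and the variants TGACATCA and TTACGTCA, each of which differs from the CRE by 1 base, without overlap between the patterns. The 2 matches, in Jun and Atf3, are shown with the motif in capitals.
Jun at chr4:95052250-95052277 (−): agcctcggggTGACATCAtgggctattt
Atf3 at chr1:191183326-191183353 (−): attaatagcaTTACGTCAgcctgggatt
TGACATCA was found in 3.62% and TTACGTCA in 0.499% of 32851 promoters of this length, against 7.81% for the TRE and 1.79% for the CRE. The promoters of Fosb, Fosl2, Junb and Jund held none of these letters in this window.

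In control lysates, Fosl1, a Fos protein that lacks the transactivation domain of Fos itself, had the highest CDS footprint density of the 9 genes, at 280.5 ± 38.8 RPKM (SD, n = 5), above 92.5% of all genes. Myc followed with 139.6 ± 17.9 RPKM (SD, n = 5) and Jun with 121.6 ± 9.12 RPKM (SD, n = 5), and their ranges, 114.2 to 164.0 and 110.0 to 134.6 RPKM, overlapped. Next came Fosl2 at 43.1 ± 4.35 RPKM (SD, n = 5). Jund followed with 23.6 ± 6.71, Egr1 with 18.3 ± 7.59 and Junb with 14.1 ± 1.85 RPKM (SD, n = 5). The range of Egr1 overlapped those of Jund and Junb, while every control lysate had more Jund than Junb footprints per length. Atf3 had 4.48 ± 0.934 and Fosb 0.975 ± 0.557 RPKM (SD, n = 5), which rest on 19 to 55 and on 5 to 36 reads per library. The order of the RNA levels was different. In RNA-seq, Jun came first with 118.5 ± 12.6 RPKM (SD, n = 5), followed by Fosl1 with 101.9 ± 14.7 RPKM (SD, n = 5), and their ranges overlapped. Jund, with 49.2 ± 6.68 RPKM (SD, n = 5), and Myc, with 42.3 ± 5.94 RPKM (SD, n = 5), came next and also overlapped.

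The difference between both orders lies in translation efficiency (TE), the CDS footprint density divided by the CDS RNA density of the same lysate. Averaged on the log2 scale and converted back, the mean TE in controls was 3.74 for Egr1, 3.30 for Myc and 2.75 for Fosl1. These were above 99.0%, 98.6% and 97.6% of all genes. The mean TE was 1.59 for Fosl2, 1.03 for Jun and 0.805 for Junb. Jund, with 0.471, was the lowest, and 16.3% of all genes were below it. The log2 TE of Myc was 1.67 to 1.79 in the 5 control lysates and that of Jund −1.38 to −0.57, so that these genes did not overlap. RPF-seq and RNA-seq were normalized separately by the authors, and TE is therefore relative to the other genes. In lysates of whole dishes, fewer cells with a transcript and less of it per cell cannot be told apart.

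**Figure D1:**
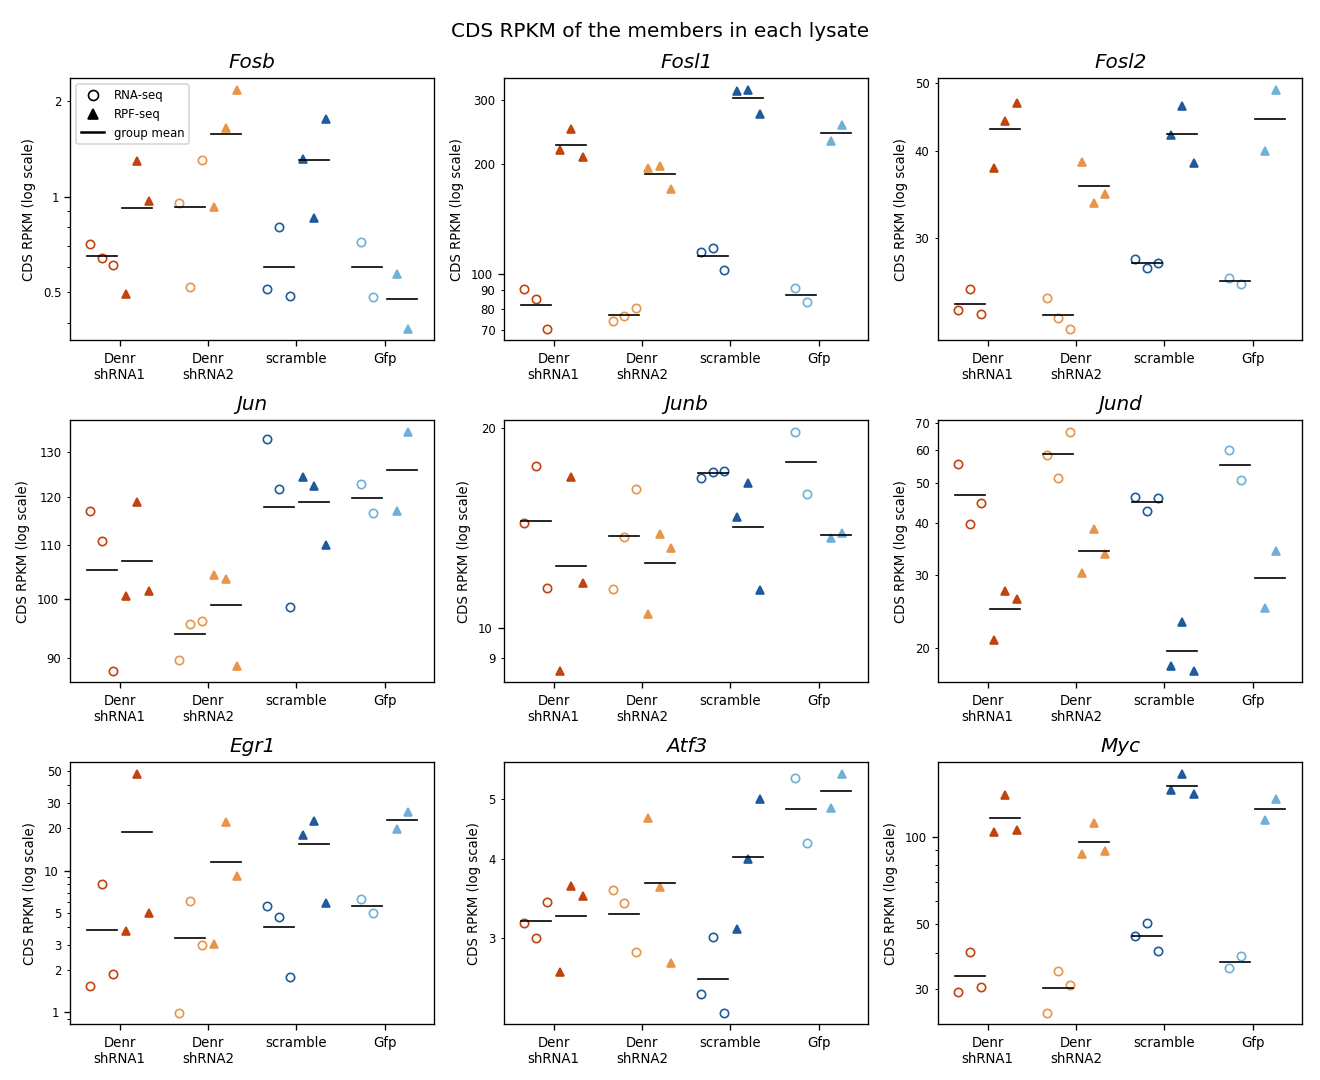
CDS RPKM of the 9 genes in each of the 11 lysates, on a log scale, by shRNA. Open circles are RNA-seq, filled triangles RPF-seq and lines the means of 3 lysates (2 for Gfp shRNA). The footprints of Fosl1 and Myc in all 6 knockdown lysates were below those in all 3 scramble lysates. For each of these genes, 5 of the 6 knockdown lysates were below both Gfp lysates. The values of Egr1 spread widely within the Denr shRNAs and scramble shRNA, and less within Gfp shRNA.

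Over the 6 knockdown against the 5 control lysates, the CDS footprints of Fosl1, Jun and Myc were reduced. Of their RNA, that of Fosl1 was reduced as well, and the log2 changes in RNA of Myc (−0.42) and Jun (−0.25) were of a size with those in footprints but did not pass the test. Of the 9 genes, 3 were called lower in CDS footprints and none higher (limma, FDR 0.1). Across all 10516 genes, 4.55% were called lower. In RNA-seq 1 of the 9 genes, Fosl1, was called lower, against 0.865% of all genes, and limma voom on the recovered reads gave the same calls in both assays. No gene of the group was called for TE. The fit took the lysates of each arm as independent, so that its p-values do not measure the spread between shRNAs. With Denr shRNA1 alone or against Gfp shRNA alone, no gene of the group was called in CDS footprints.

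The Fosl1 CDS had 219, 250.0 and 209 RPKM of footprints with Denr shRNA1 and 195, 198 and 171 RPKM with Denr shRNA2, and 319, 320 and 276 RPKM with scramble shRNA and 231 and 257 RPKM with Gfp shRNA. All 6 knockdown lysates were below every scramble lysate, and 5 of 6 were below every control lysate. The log2 fold change was −0.44 (SE 0.10, 0.739-fold, adjusted p = 0.0287). Fosl1 RNA had 90.8, 85.2 and 70.6 RPKM with Denr shRNA1, 74.2, 76.5 and 80.5 RPKM with Denr shRNA2, 114.4, 117.9 and 102.3 RPKM with scramble shRNA and 91.5 and 83.4 RPKM with Gfp shRNA. Again all knockdown lysates were below all scramble lysates, but 2 of 6 were not below both Gfp lysates. The log2 fold change of the RNA was −0.35 (SE 0.099, adjusted p = 0.0975). This call was lost in 8 of the 11 fits that left out 1 lysate (adjusted p = 0.0483 to 0.255), namely those without any 1 of the scramble lysates, Denr shRNA1 replicate 2 or 3, or any 1 of the Denr shRNA2 lysates. The TE of Fosl1 changed by −0.088 on the log2 scale (95% interval −0.29 to 0.12, adjusted p = 0.994).

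For Fosl1, the choice of control mattered. The controls differed from each other in its footprints, with 244 ± 18.1 RPKM (SD, n = 2) for Gfp and 305 ± 25.2 RPKM (SD, n = 3) for scramble shRNA. This log2 difference of −0.32 (SE 0.10) passed the threshold (adjusted p = 0.0985). Against Gfp shRNA alone, an alternative added after the data were seen, the footprint change of Fosl1 was −0.24 (adjusted p = 0.498) and that of its RNA −0.14 (adjusted p = 0.999), and no gene of the group was called in either measure. With Denr shRNA1 alone against all controls, the footprint change was −0.30 (adjusted p = 0.171) and no gene of the group was called, while with Denr shRNA2 alone Fosl1, Jun and Myc were.

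Myc CDS footprints had 103.8, 138.7 and 105.2 RPKM with Denr shRNA1, 87.4, 112.0 and 89.6 RPKM with Denr shRNA2, 144.8, 164.0 and 139.9 RPKM with scramble shRNA, and 114.2 and 135.2 RPKM with Gfp shRNA. The exception among the knockdown lysates was Denr shRNA1 replicate 2, which was above both Gfp lysates, while the other 5 were below all controls. The log2 fold change was −0.40 (SE 0.11, 0.756-fold, adjusted p = 0.0593). Myc RNA had 29.4, 40.1 and 30.5 RPKM with Denr shRNA1, 24.9, 34.7 and 31.1 RPKM with Denr shRNA2, 45.5, 50.7 and 40.6 RPKM with scramble shRNA, and 35.6 and 39.0 RPKM with Gfp shRNA. Here too, Denr shRNA1 replicate 2 was the 1 knockdown lysate not below all controls. The change in RNA, −0.42 on the log2 scale (SE 0.12), was as large as that in footprints but missed the threshold (adjusted p = 0.101). With the libraries centred on their median it passed (−0.44, adjusted p = 0.0936). Log2 TE changed by 0.013 (95% interval −0.15 to 0.17, adjusted p = 0.999), the narrowest interval of the 9 genes.

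Jun, the AP-1 subunit that can dimerize with itself as well as with Fos proteins, had 100.6, 118.9 and 101.5 RPKM of CDS footprints with Denr shRNA1, 104.4, 103.6 and 88.7 RPKM with Denr shRNA2, 124.2, 122.2 and 110.0 RPKM with scramble shRNA, and 117.0 and 134.6 RPKM with Gfp shRNA. Of the knockdown lysates, 5 of 6 were below all controls. The log2 fold change was −0.24 (SE 0.073, 0.846-fold, adjusted p = 0.0723). Its RNA ranged from 88.0 to 117.0 RPKM after knockdown and from 98.6 to 132.9 RPKM in controls, a change of −0.25 on the log2 scale (SE 0.095) that missed the threshold (adjusted p = 0.198). Log2 TE changed by 0.010 (95% interval −0.20 to 0.22), and its sign varied with the lysate left out (−0.024 to 0.064).

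Unlike the footprint call of Fosl1, those of Jun and Myc were not kept in every fit that left out 1 lysate. Leaving out 1 lysate at a time, Fosl1 footprints stayed past the threshold in all 11 fits (adjusted p = 0.0190 to 0.0811). For Jun the call was lost in 7 of the 11 fits (adjusted p = 0.0453 to 0.153), those without any 1 of the Denr shRNA2 lysates, Denr shRNA1 replicate 1 or 3, or scramble replicate 1 or 2. For Myc it was lost in 5 (adjusted p = 0.0267 to 0.146), those without any 1 of the scramble lysates or Denr shRNA2 replicate 1 or 3. The log2 changes themselves moved little, from −0.28 to −0.20 for Jun and from −0.48 to −0.34 for Myc.

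**Figure D2:**
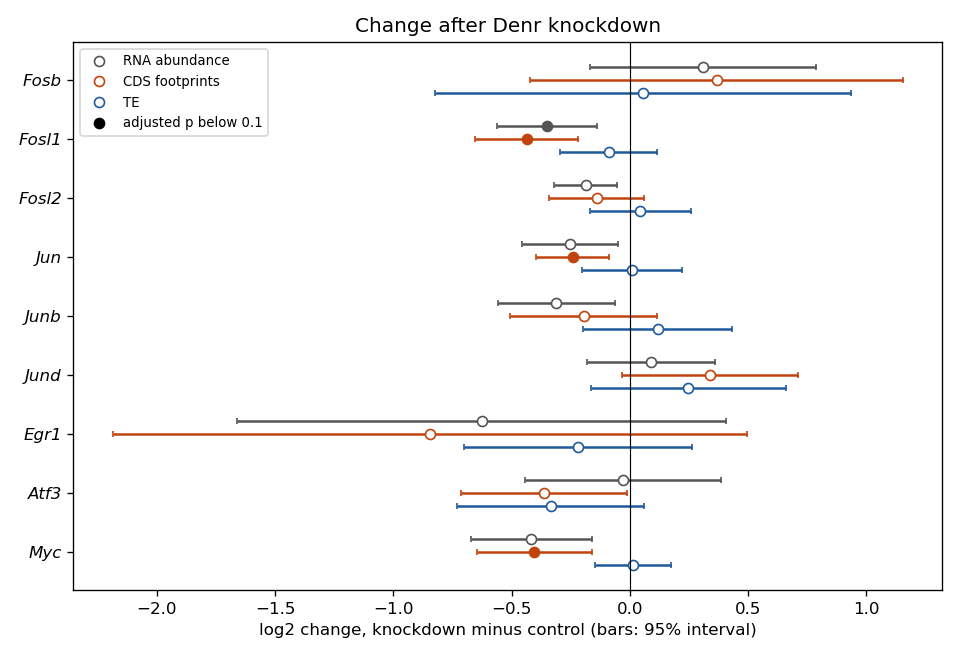
Log2 change of RNA abundance, CDS footprints and TE of the 9 genes, 6 knockdown minus 5 control lysates, with 95% intervals from limma. Filled points passed an adjusted p of 0.1, namely Fosl1 in RNA and Fosl1, Jun and Myc in CDS footprints, and all TE intervals include 0.

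Among the remaining AP-1 genes, Fosl2 RNA was the only measure of the group in which the groups did not overlap. Fosl2 RNA had 23.7, 25.4 and 23.4 RPKM with Denr shRNA1, 24.7, 23.1 and 22.3 RPKM with Denr shRNA2, 28.1, 27.2 and 27.7 RPKM with scramble shRNA, and 26.3 and 25.8 RPKM with Gfp shRNA. Every knockdown lysate was below every control lysate, which held for 1.04% of all genes in RNA-seq. The change of −0.19 on the log2 scale (SE 0.062) missed the threshold nonetheless (adjusted p = 0.149), although the SD of Fosl2 RNA within shRNAs was low (0.053 on the log2 scale, with a lower SD in 1.92% of all genes), because limma draws a low spread towards that of genes of similar level. Its footprints ranged from 33.7 to 46.8 RPKM after knockdown and from 38.4 to 48.8 RPKM in controls, a change of −0.14 (adjusted p = 0.373).

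Junb, a Jun protein with weaker transactivation than Jun, had 11.4 to 17.6 RPKM of RNA after knockdown and 15.9 to 19.7 RPKM in controls. The log2 change was −0.31 in RNA (SE 0.12, adjusted p = 0.193) and −0.19 in footprints (SE 0.15, adjusted p = 0.438). Jund, the Jun protein that is expressed at a steady level in resting cells, went the other way in footprints, but its values followed the single shRNAs and not the arms. Its footprints were 20.9, 27.5 and 26.2 RPKM with Denr shRNA1, 30.3, 38.9 and 33.7 RPKM with Denr shRNA2, 18.1, 23.2 and 17.7 RPKM with scramble shRNA, and 25.0 and 34.2 RPKM with Gfp shRNA. Denr shRNA2 was thus at the level of Gfp shRNA, and Denr shRNA1 lay between scramble and Gfp shRNA. Over both arms the change was 0.34 (SE 0.17, adjusted p = 0.254), and it became 0.48 without Gfp replicate 2 (adjusted p = 0.0657), 0.57 against scramble shRNA alone (adjusted p = 0.0371) and −0.011 against Gfp shRNA alone (adjusted p = 0.993).

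Fosb, the Fos protein whose truncated splice form accumulates after repeated stimulation, was covered by 4 to 23 reads per RNA-seq library, with 0.521 to 1.30 RPKM after knockdown and 0.483 to 0.804 RPKM in controls, and no change was detectable at this depth. Its log2 changes were 0.31 in RNA (95% interval −0.17 to 0.79) and 0.37 in footprints (95% interval −0.42 to 1.15), with adjusted p of 0.532 and 0.571. Atf3 RNA was 2.85 to 3.57 RPKM after knockdown and 2.28 to 5.39 RPKM in controls (log2 change −0.028, adjusted p = 0.966). Its footprints were 2.65 to 4.66 RPKM after knockdown and 3.10 to 5.47 RPKM in controls (log2 change −0.36, SE 0.16, adjusted p = 0.196). The change in TE of Atf3, −0.33 on the log2 scale (95% interval −0.73 to 0.061), had the lowest unadjusted p of the 9 genes for TE (0.0906), with an adjusted p of 0.846.

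Egr1 differed between dishes of the same shRNA far more than between arms. Its CDS footprints were 3.77, 47.6 and 4.98 RPKM in replicates 1, 2 and 3 of Denr shRNA1, 3.03, 22.1 and 9.22 RPKM in those of Denr shRNA2, 17.7, 22.2 and 5.92 RPKM in those of scramble shRNA, and 19.7 and 26.1 RPKM in those of Gfp shRNA. These values rest on 67 to 1045 reads. In each of the 4 groups the highest footprint value was that of replicate 2. Egr1 RNA followed the footprints in the knockdown lysates, with 1.53, 8.10 and 1.88 RPKM for Denr shRNA1 and 0.999, 6.07 and 2.97 RPKM for Denr shRNA2. With scramble shRNA it had 5.58, 4.72 and 1.78 RPKM, and with Gfp shRNA 6.33 and 4.98 RPKM. The SD within shRNAs was 1.42 on the log2 scale for footprints and 1.06 for RNA, each above 99.98% of all genes (median over genes 0.121 and 0.156). Over the arms, the log2 change was −0.85 in footprints (95% interval −2.19 to 0.50, adjusted p = 0.431) and −0.63 in RNA (95% interval −1.66 to 0.41, adjusted p = 0.566), so that both intervals reached more than 1 log2 unit to each side of the estimate.

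Denr shRNA1 replicate 2 had the highest CDS footprints of the 6 knockdown lysates for 5 of the 9 genes, Fosl1, Jun, Junb, Egr1 and Myc, and the highest RNA for 4, Fosl2, Junb, Egr1 and Myc. Without this lysate the log2 change in footprints was −0.48 for Myc, −0.28 for Jun and −1.32 for Egr1 (adjusted p = 0.169), and Fosl1, Jun and Myc remained past the threshold. Leaving out the knockdown lysate with the highest values had to make these changes more negative, so that they are no further support for a reduction. In RNA-seq, Myc, whose highest knockdown value was also in this lysate, then passed the threshold (−0.49, adjusted p = 0.0606) and Fosl1 did not (−0.37, adjusted p = 0.123). In 5 of the 9 genes, Fosl1, Fosl2, Jun, Junb and Myc, footprints and RNA had a lower mean after knockdown and TE a change between −0.088 and 0.12. Over the 9 genes, the median log2 change was −0.25 in RNA, −0.24 in CDS footprints and 0.013 in TE, against 0.027, 0.0072 and −0.012 over all genes. For TE, 0.475% of all genes were called, 50 lower and none higher. None of the 9 genes was called by limma, none had an unadjusted p below 0.05, and none was called in a model of both assays over the 22 libraries, with the difference between assays as an interaction.

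Relative 5′ UTR translation, the footprint density of the 5′ UTR divided by that of the CDS, could be tested for the 5175 genes covered by 20 or more 5′ UTR footprints in 9 or more of the 11 lysates. These included 7 of the 9 genes. Fosb, with at most 3 reads, and Atf3, with at most 9, did not pass. Across the 5175 genes 18.1% were called higher after knockdown and the median log2 change was 0.33, while none of the 7 genes was called by limma and 1, Jun, had an unadjusted p below 0.05 (0.0319). Of the 7 log2 changes, 6 were positive and the median was 0.28, while 93.5% of the 5175 genes had a positive change.

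The 5′ UTR of Jun carried more ribosomes per length than its CDS. The 5′ UTR footprint density of Jun was 148.8, 171.0 and 142.5 RPKM with Denr shRNA1, 129.9, 160.1 and 117.9 RPKM with Denr shRNA2, 135.7, 165.0 and 111.3 RPKM with scramble shRNA, and 118.0 and 155.4 RPKM with Gfp shRNA. In each of the 11 lysates it was above that of the CDS. The mean ratio in controls, averaged on the log2 scale and converted back, was 1.12, above 75.7% of the 5175 genes, whose median was 0.538. The values rest on 1892 to 2900 reads, and the counted region was longer than the vM21 5′ UTR in which no AUG uORF was found. The log2 ratio was 0.56, 0.52 and 0.49 with Denr shRNA1, 0.32, 0.63 and 0.41 with Denr shRNA2, 0.13, 0.43 and 0.017 with scramble shRNA, and 0.012 and 0.21 with Gfp shRNA. Of the 6 knockdown lysates, 4 were above all controls. The change of 0.33 (SE 0.14, adjusted p = 0.124) missed the threshold, but passed it without scramble replicate 2 (0.40, adjusted p = 0.0869).

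Junb had the second highest ratio, 1.09 in controls, with log2 values from 0.058 to 0.68 after knockdown and from −0.16 to 0.27 in controls (change 0.25, SE 0.16, adjusted p = 0.255). For Myc the log2 ratio ranged from −1.83 to −1.34 after knockdown and from −2.32 to −1.71 in controls, and 5 of 6 knockdown lysates were above all controls (change 0.31, SE 0.16, adjusted p = 0.175). The 5′ UTR footprints of Myc themselves were 24.5 to 46.6 RPKM after knockdown and 22.7 to 45.7 RPKM in controls, almost the same range, while its CDS footprints were lower as given above. The ratio of Fosl2 was 0.400 in controls and changed by 0.28 (SE 0.15, adjusted p = 0.193). That of Egr1 was 0.129 and changed by 0.37 (SE 0.21, adjusted p = 0.213). Egr1 had the most AUG uORFs of the group, 10 as read from the sequence of its annotated transcript. RNA-seq was sparse over the 5′ UTR of Egr1 too, with a control mean of 0.605 RPKM against 4.68 RPKM on its CDS. Whether the Egr1 transcripts of these cells held these uORFs was not tested. The 5′ UTR of Fosl1, with 3 AUG uORFs, had a ratio of 0.119 in controls, above 10.7% of genes, and changed by 0.16 (SE 0.19, adjusted p = 0.520). Jund had the lowest ratio, 0.0930, and changed by −0.063 (SE 0.19, adjusted p = 0.811). Its RNA was also sparse over the region counted as 5′ UTR, with a control mean of 3.00 RPKM against 49.2 RPKM on the CDS. The low ratio of Jund therefore cannot be read as low translation of its 5′ UTR. For Jun, Junb, Jund and Myc the densities hold for the regions that the authors counted, which were longer than the annotated 5′ UTRs. For Fosl1 the counted region of 248 nt was shorter than the annotated 5′ UTR, and since its uORFs ended 244 nt or more before the CDS, they lay almost wholly outside a region of this length next to the CDS.

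**Figure D3:**
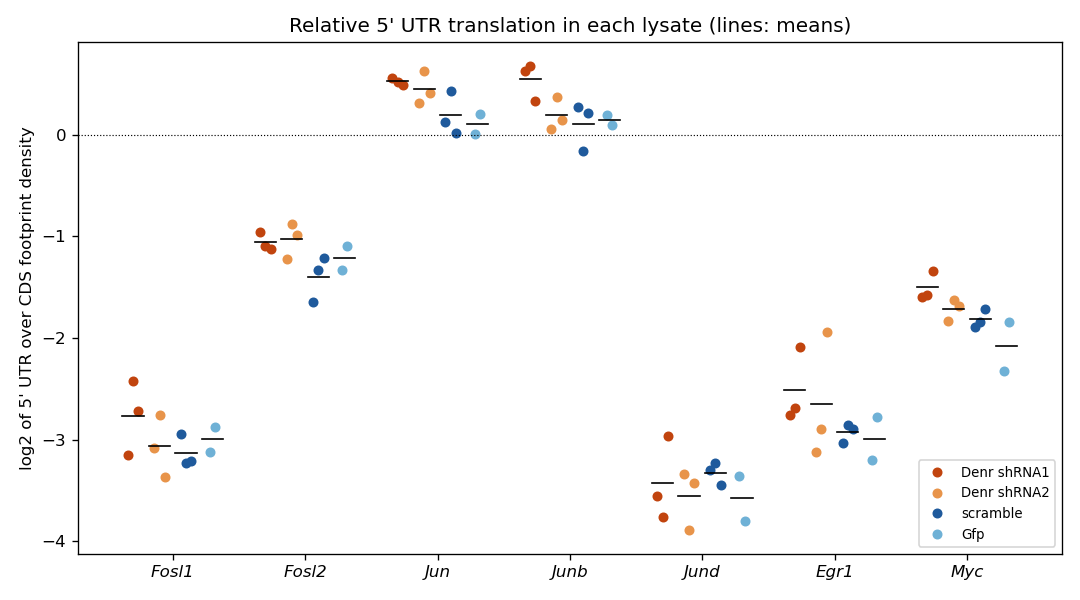
Log2 ratio of 5′ UTR to CDS footprint density in each lysate for the 7 genes with 5′ UTR coverage, by shRNA, with the mean of each shRNA as a line. Jun lies above 0, the dotted line of equal density, in all 11 lysates, and Fosl1, Jund and Egr1 lie at −1.94 or lower. For Jund and Egr1, RNA-seq density was also far lower over the counted 5′ UTR than over the CDS.

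Whether the members depended on the shRNA used was asked by comparing the 2 Denr shRNAs and the 2 control shRNAs. Between Denr shRNA2 and Denr shRNA1, 1 of the 9 genes was called in CDS footprints, where 9.69% of all genes were, and none in RNA, where 2.06% were and where Jund alone had an unadjusted p below 0.05 (0.0276). This gene was Jund, with 34.3 ± 4.31 RPKM (SD, n = 3) for shRNA2 and 24.9 ± 3.50 RPKM (SD, n = 3) for shRNA1, a log2 difference of 0.46 (SE 0.15, adjusted p = 0.0934). It was not called in 5 of the 11 fits without 1 lysate (adjusted p = 0.0734 to 0.302), namely those without any 1 of the Denr shRNA1 lysates or Denr shRNA2 replicate 2 or 3, nor without the trend in the moderation (adjusted p = 0.136). Footprints of Fosl1 (adjusted p = 0.115), Fosl2 (adjusted p = 0.180) and Myc (adjusted p = 0.275) had lower means with shRNA2, with log2 differences of −0.27, −0.26 and −0.26 that did not pass.

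Between Gfp and scramble shRNA, both controls, 1 of the 9 genes was called in RNA and 2 in CDS footprints, against 0.704% and 8.48% of all genes. Atf3 RNA was 5.39 and 4.25 RPKM with Gfp shRNA and 2.44, 3.00 and 2.28 RPKM with scramble shRNA, without overlap, on 48 and 33 reads against 23, 24 and 10. The log2 difference was 0.88 (SE 0.17, adjusted p = 0.0664). Jund footprints were higher with Gfp shRNA by 0.58 on the log2 scale (SE 0.17, adjusted p = 0.0762), and Fosl1 footprints lower, as given above. With 2 Gfp lysates, these calls were not kept in every fit that left out 1 lysate. Atf3 was not called without either Gfp lysate (adjusted p = 0.515 and 0.273), nor was Fosl1 (0.327 and 0.207), and Jund was not without Gfp replicate 2 (0.436). Other lysates whose removal ended a call were any 1 of the scramble lysates, Denr shRNA1 replicate 2 and Denr shRNA2 replicates 1 and 2 for Atf3, scramble replicates 1 and 2, Denr shRNA1 replicate 1 and Denr shRNA2 replicates 1 and 2 for Fosl1, and scramble replicates 1 and 3 for Jund. Fosb footprints were 0.570 and 0.385 RPKM with Gfp shRNA and 1.31, 0.859 and 1.75 RPKM with scramble shRNA, and just missed the threshold (−1.25, adjusted p = 0.104).

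**Figure D4:**
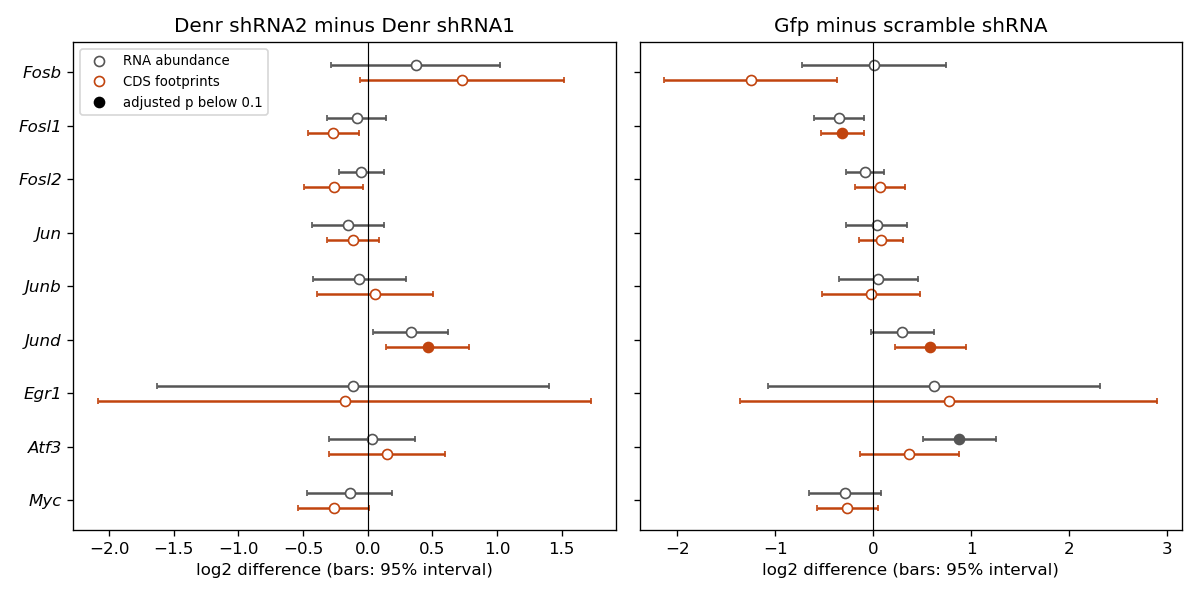
Log2 differences in RNA abundance and CDS footprints of the 9 genes between the Denr shRNAs (left) and between the control shRNAs (right), with 95% intervals. Filled points passed an adjusted p of 0.1, namely Jund footprints on both sides, and Atf3 RNA and Fosl1 footprints between the controls.

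Genes that act with these factors were described by lists. Across all genes, 5.47% were called higher and 4.55% lower in CDS footprints, and 2.68% higher and 0.865% lower in RNA. Of 18 other immediate early genes analysed of 22 listed, 1 was called higher and 1 lower in CDS footprints and none in RNA, although 11 of the 18 had an unadjusted p below 0.05 in RNA (limma), 7 lower and 4 higher. Among all genes, 4.92% were lower and 11.2% higher at this unadjusted p. Ccn2, a matricellular protein, rose from 27.4 to 44.2 RPKM of footprints (log2 change 0.68, SE 0.13, adjusted p = 0.0140). Maff, a small MAF protein that binds as a bZIP dimer, fell from 31.7 to 24.3 RPKM (−0.39, SE 0.076, adjusted p = 0.0156). The median log2 change of this list was −0.16 in RNA and −0.12 in footprints. Of 13 genes for SRF, ternary complex factors and MAP kinases, which relay growth factor signals to the SRE of immediate early promoters, Mapk3, the ERK1 kinase, was called higher both in RNA (36.9 to 51.2 RPKM, log2 change 0.49, adjusted p = 0.0758) and in footprints (88.9 to 110.3 RPKM, log2 change 0.32, adjusted p = 0.0409), and the other 12 were not called in either.

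Of 8 bZIP partners and Egr1 corepressors analysed, Mafk, another small MAF protein, fell in footprints (38.0 to 30.8 RPKM, log2 change −0.29, adjusted p = 0.0950), and Nab1, which binds EGR1 and represses it, rose (24.7 to 29.6 RPKM, 0.26, adjusted p = 0.0948). None of the 10 genes of the MYC-MAX network was called in RNA, footprints or TE, with 1, 1 and 0 at an unadjusted p below 0.05 (limma). Of 10 AP-1 target genes analysed, Plaur, the urokinase receptor, fell in footprints (73.6 to 59.3 RPKM, −0.31, adjusted p = 0.0851), 8 of the 10 had a negative change in RNA and 8 in footprints, and the list medians were −0.19 and −0.20. Among all genes, 57.1% had a positive change in RNA and 51.9% in footprints. Of 11 MYC target genes, 2 fell in footprints, namely Ldha, the lactate dehydrogenase subunit of glycolysis (900.6 to 725.9 RPKM, −0.31, adjusted p = 0.0245), and Cad, the enzyme that opens pyrimidine synthesis (23.0 to 19.6 RPKM, −0.23, adjusted p = 0.0844). The remaining 9 were not called, and the list median was −0.21 in footprints and −0.12 in RNA. For relative 5′ UTR translation, the shares called in the lists stood beside 18.1% of all 5175 genes. Of the 11 other immediate early genes tested, 2 were called higher (Klf10 and Gadd45b), as were 2 of 8 bZIP partners and corepressors (Atf2 and Mafk), 1 of 8 AP-1 targets (Hbegf), 3 of 8 MYC targets (Npm1, Fbl and Nop58), and none of 9 SRF, ternary complex factor and MAP kinase genes or of 3 MYC-MAX genes, where 4 and 0 had an unadjusted p below 0.05 (limma). These 8 genes were named after their values were seen, and their log2 changes ranged from 0.41 to 0.78. No gene of these 6 lists was called for TE by limma, and 0 had an unadjusted p below 0.05.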

How the data were processed

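RPF-seq and RNA-seq were made from the same 11 lysates. Reads were processed by the authors with CASAVA 1.82, cutadapt, Bowtie2 2.2.1, TopHat2 2.0.11 and Cufflinks 2.2.1 on GRCm38.p2. The deposited values are RPKM for the CDS and 5′ UTR of 10516 genes, upper-quartile normalized by the authors with edgeR, for each assay separately. Whole reads and the length of each region were inferred from the RPKM steps (100% of values within 0.02 reads of a whole number). The reads were used for depth and for limma voom, an alternative. Log2(RPKM + 0.1) was tested with limma 3.58.1 (R 4.3.3, trended eBayes, Benjamini-Hochberg adjustment over all genes, FDR 0.1), with 6 knockdown against 5 control lysates or with 1 mean per shRNA. Fold changes on this scale are understated for low genes. TE and relative 5′ UTR translation were log2 differences within a lysate. Lysates with the same replicate number tended to deviate together, but not in every pair. The number was left out of the main fits and used as a block in an alternative. Sequences, uORFs, tables and figures were made with Python 3.11.15, numpy 2.4.6, pandas 2.3.3 and matplotlib 3.10.9. The fits were tested on simulated data. The members and lists (other immediate early genes, upstream kinases and SRF factors, bZIP partners and Egr1 corepressors, MYC-MAX network, AP-1 targets, MYC targets, and cell type markers) were chosen with earlier results of these data known. Named were all members, Denr and, per list and fit, at most 4 genes called in RNA, CDS footprints or TE. Genes called for relative 5′ UTR translation alone and the markers of other cell types were named outside this rule.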

Additional observations from a re-analysis of the deposited data

Results flagged for a closer look

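The CDS footprints of Jund differed between the 2 Denr shRNAs, by 0.463 on the log2 scale (SE 0.15, limma, adjusted p = 0.0934, 3 lysates each, without overlap). They were singled out because the level differed between the 2 shRNAs against Denr. The difference in RNA was 0.33 (SE 0.13, adjusted p = 0.306) and that in TE 0.13 (SE 0.27, adjusted p = 0.972). The 2 control shRNAs differed by a similar amount (0.58, adjusted p = 0.0762). Of the 9 genes, 1 was called in CDS footprints between the Denr shRNAs, against 9.69% of all genes. None of 68 groups of 5 or 6 lysates of a gene and measure had a lysate beyond Dixon's 95% limit, which chance would give in about 1 of 20 groups.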

How the results depend on the processing

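With other pseudocounts, libraries centred on their median, no trend, voom, or the RPKM filter, the footprint calls of Fosl1, Jun and Myc were kept, with scramble shRNA alone Jun was not called (adjusted p = 0.102) and Jund was, and no setting gave a call for TE. The number of genes called in RNA, 1 as reported, was 0 with a mean CDS RPKM of at least 1, without the trend, with Denr shRNA1 alone and with Gfp shRNA alone (a choice made after seeing the data), and 2 with centred libraries and with scramble shRNA alone. With Denr shRNA2 alone it was 1, but the gene was Myc (adjusted p = 0.0900) and not Fosl1 (adjusted p = 0.107). The number called in CDS footprints, 3, was 0 with Denr shRNA1 alone and with Gfp shRNA alone. Without the trend, 0 genes differed between the Denr shRNAs and 1 between the control shRNAs. With the replicate number as a block, 2 genes were called in RNA (Fosl1 and Myc), 1 in relative 5′ UTR translation (Jun, 0.34, adjusted p = 0.0456) and 4 measures between the Denr shRNAs (Jund in RNA and in footprints, Fosl1 and Myc in footprints). The block changed none of the 3 footprint calls. Deviations of lysates with the same number correlated at −0.082 to 0.775 over 15 pairs in RNA (mean 0.326), above 0.1 in 10. In footprints they correlated at −0.0034 to 0.323 (mean 0.18), above 0.1 in 13, and in TE at −0.126 to 0.728 (mean 0.226), above 0.1 in 10. Lysates with the same number thus tended to deviate together, but not in every pair, and the numbers were not taken as pairs in the main fits. Leaving out 1 lysate gave 0 to 2 calls in RNA, 1 to 4 in footprints, 0 to 1 in relative 5′ UTR translation, 0 to 2 between Denr shRNAs and 0 to 3 between control shRNAs. Signs turned, none past the threshold in either direction, as follows. With Gfp shRNA alone, Jund was −0.087 in RNA, −0.011 in footprints and 0.088 in relative 5′ UTR translation, and TE was −0.046 for Fosl2, −0.018 for Jun and −0.00088 for Myc. With scramble shRNA alone, Atf3 RNA was 0.32, Fosb footprints −0.13 and Fosb TE −0.45. With Denr shRNA1 alone, Jund RNA was −0.077, and TE was −0.12 for Fosb, 0.0018 for Fosl1 and −0.011 for Jun. With Denr shRNA2 alone, TE was −0.062 for Fosl2 and −0.049 for Myc. With the block, Atf3 RNA was 0.0096 and Fosb TE −0.030. Leaving out 1 lysate, ranges were −0.17 to 0.018 for relative 5′ UTR translation of Jund, −0.16 to 0.15 for Atf3 RNA, and for TE −0.14 to 0.35 (Fosb), −0.011 to 0.11 (Fosl2), −0.024 to 0.064 (Jun) and −0.0040 to 0.054 (Myc). The cause was not tested. Depth limited Fosb and Atf3 in both assays and, by their 5′ UTR reads, kept both out of the test of relative 5′ UTR translation.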
